A study of Homo sapiens with 8 samples.

Results

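Transcription start sites that lay in groups inside introns were examined in replicatively senescent IMR90 cells, a human lung fibroblast line. The members were 446 of the 849 sites in the authors' list of senescent start sites, out of 1249 sites in the senescent and proliferating lists together. A site was taken when its midpoint lay inside a GENCODE 44 gene, more than 1 kb from every annotated transcript start and outside every exon, and when the midpoint of another site of that list lay within 10 kb. The authors' fold was not used to choose them. The nearest neighbour of a member was at most 9915 bases away, and the nearest neighbour of an isolated intronic site was at least 11445 bases away. 

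The study compared proliferating cells with cells that had stopped dividing after serial passage, all grown at 3% oxygen. PRO-cap libraries numbered 3 for proliferating cells, at population doublings 23 to 26, and 3 for senescent cells, at population doublings 67 to 76. There was also 1 PRO-seq library of each state, at population doublings 20 and 76, which was not analysed here. The lists held 1 fold per site, senescent over proliferating for the members, and no value per library, so nothing below has a spread between cultures and markers of the cell line could not be checked. All groups were of 1 cell line.

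PRO-cap reads the capped 5′ ends of RNA that engaged polymerases are making, so unstable transcripts are seen together with stable ones. RNA polymerase II usually starts on a purine that follows a pyrimidine. Many enhancers and promoters hold a nucleosome-depleted stretch with a start at each edge, one on each strand, pointing away from each other. Introns of long genes hold many enhancers, and AP-1, a dimer of FOS and JUN family proteins, is a common factor at fibroblast enhancers.

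The first 9 sequences run from one start to its neighbour, with 15 bases beyond each, and carry at least 1 AP-1 motif between the starts. They are given 5′ to 3′ on the + strand of GRCh37, the primary assembly with hg19 coordinates. Capitals mark the pyrimidine-purine step at each end, where the leftward and the rightward transcript are read to begin, and each AP-1 motif (TGACTCA or TGAGTCA, both strands).

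ADAM12 chr10:127749319-127749500: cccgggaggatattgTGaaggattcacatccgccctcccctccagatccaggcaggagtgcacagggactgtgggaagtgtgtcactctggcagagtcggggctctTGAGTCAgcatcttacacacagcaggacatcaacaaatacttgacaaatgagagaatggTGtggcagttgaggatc
PTPRM chr18:8141210-8141393: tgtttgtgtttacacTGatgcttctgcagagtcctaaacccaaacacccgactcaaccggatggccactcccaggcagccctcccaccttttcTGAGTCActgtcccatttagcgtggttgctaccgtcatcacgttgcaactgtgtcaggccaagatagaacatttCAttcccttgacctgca
ANTXR1 chr2:69390279-69390533: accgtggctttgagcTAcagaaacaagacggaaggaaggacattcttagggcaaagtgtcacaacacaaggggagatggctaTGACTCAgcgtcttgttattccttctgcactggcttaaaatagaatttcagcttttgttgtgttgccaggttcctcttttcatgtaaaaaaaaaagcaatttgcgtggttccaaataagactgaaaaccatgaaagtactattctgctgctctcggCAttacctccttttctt
STK32B chr4:5367496-5367691: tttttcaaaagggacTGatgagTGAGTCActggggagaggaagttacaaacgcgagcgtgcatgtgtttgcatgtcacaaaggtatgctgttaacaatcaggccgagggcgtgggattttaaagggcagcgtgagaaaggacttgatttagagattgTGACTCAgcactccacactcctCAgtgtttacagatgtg
ARHGEF3 chr3:56874566-56874748: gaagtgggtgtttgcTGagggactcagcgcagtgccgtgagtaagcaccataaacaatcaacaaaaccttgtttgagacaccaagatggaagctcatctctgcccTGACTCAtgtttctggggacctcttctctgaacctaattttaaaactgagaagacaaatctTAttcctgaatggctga
RAD51B chr14:69086980-69087188: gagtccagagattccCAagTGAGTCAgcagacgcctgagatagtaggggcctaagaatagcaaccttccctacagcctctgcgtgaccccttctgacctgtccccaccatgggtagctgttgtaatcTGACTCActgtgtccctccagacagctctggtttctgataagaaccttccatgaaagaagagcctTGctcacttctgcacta
PALM2AKAP2 chr9:112663576-112663750: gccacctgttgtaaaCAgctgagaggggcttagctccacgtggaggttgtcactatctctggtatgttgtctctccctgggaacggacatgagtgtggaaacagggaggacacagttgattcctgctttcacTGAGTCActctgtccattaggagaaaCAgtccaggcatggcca
DOCK9 chr13:99505997-99506169: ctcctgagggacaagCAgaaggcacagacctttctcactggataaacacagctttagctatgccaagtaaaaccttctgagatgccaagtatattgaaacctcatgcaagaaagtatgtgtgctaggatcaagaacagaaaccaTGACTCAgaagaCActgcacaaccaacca
CTIF chr18:46253076-46253336: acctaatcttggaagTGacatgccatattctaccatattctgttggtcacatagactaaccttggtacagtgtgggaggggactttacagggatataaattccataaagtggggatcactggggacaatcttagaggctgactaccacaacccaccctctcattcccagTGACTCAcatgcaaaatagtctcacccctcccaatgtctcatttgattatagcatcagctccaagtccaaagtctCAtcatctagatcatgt

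Another 3 pairs with high read counts and no AP-1 motif between their starts are shown for contrast, marked in the same way.

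AOPEP chr9:97629633-97629721: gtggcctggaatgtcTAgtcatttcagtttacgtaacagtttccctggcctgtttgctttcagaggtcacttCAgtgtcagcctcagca
RUNX1 chr21:36181060-36181272: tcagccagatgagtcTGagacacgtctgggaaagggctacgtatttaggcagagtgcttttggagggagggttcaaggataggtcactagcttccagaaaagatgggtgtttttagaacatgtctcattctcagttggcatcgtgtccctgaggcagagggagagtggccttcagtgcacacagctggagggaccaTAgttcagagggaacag
RETREG1 chr5:16539341-16539575: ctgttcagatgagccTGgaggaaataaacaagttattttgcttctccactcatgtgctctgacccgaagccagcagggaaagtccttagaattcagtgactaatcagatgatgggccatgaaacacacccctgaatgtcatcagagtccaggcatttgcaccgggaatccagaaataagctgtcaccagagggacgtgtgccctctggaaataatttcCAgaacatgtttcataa

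The deposited folds could be taken apart into reads. Every fold of the senescent list equalled whole senescent reads and whole proliferating reads, each times a fixed step, with 1 added to both sides (tolerance 1e-06, 849 of 849 sites, against 0.01% of 10000 random folds). Reads below are these decoded counts within the 150 bases of a site. They are given in place of folds, because a fold over 0 proliferating reads is set largely by the added 1. A fold over few proliferating reads rests on a small count. In the ADAM12 pair the leftward start had 908 senescent reads and 1 proliferating read, and the rightward start had 64 and 0. ADAM12, a membrane-anchored metalloproteinase, thus held the member with the most reads. In PTPRM, a receptor tyrosine phosphatase that mediates cell contacts, the starts had 283 and 117 senescent reads and no proliferating read (0 at both). In RUNX1, a transcription factor of the Runt family, the starts had 338 and 177 senescent reads against 9 and 1 proliferating reads. The pairs shown in ADAM12 and PTPRM thus had 1 proliferating read or none at each start, and the RUNX1 pair had 9 and 1. This does not hold for PTPRM as a whole, where 5 of 11 members had no proliferating read and the others had up to 4.

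The sites lay in 174 regions, joined within 10 kb, and in 157 host genes, of which 146 were protein-coding. Of the protein-coding genes in the annotation, 0.727% held a member, and of those longer than 100 kb, 3.12%. The median host gene was 236 kb long. Coding genes hosted 422 members and other genes 24, and 69 members lay within more than 1 gene, so that their host is not unique. A region held 2 members in 103 cases, 3 in 32 and at least 4 in 26, and the other 13 held a single member whose neighbour was not intronic. Regions with at least 5 members numbered 14 and held 83 of the sites. 

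Members stood deep inside their genes. They lay a median of 179 kb from the gene's 5′ end and 13485 bases from the nearest annotated transcript start, with 21 members within 2 kb of one. By gene length the median position was 70.6% (interquartile range 56.9 to 82.2), and 401 members were in the distal part, beyond the gene's midpoint. The isolated intronic sites had a median position of 69.8%. Introns were taken here and below as the gaps between the merged exons of all annotated transcripts of a gene. Their numbers and lengths can therefore differ from those of any single transcript. By this count 17 members lay in a first intron and 34 in a last intron. The introns that held them had a median length of 24378 bases, and 144 of the 161 regions with several members stayed within 1 intron.

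Within a region the sites were close to one another. The nearest site of the list lay within 500 bases of 306 members (68.6%), and 15 members had it between 5 and 10 kb away. The regions with several members spanned a median of 664 bases between their outer start bases (interquartile range 165 to 2231, longest 14757). Sites within 500 bases formed a single group in 76 of these regions and several groups in 85. Single groups and strings of groups were thus about as common.

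**Figure D1:**
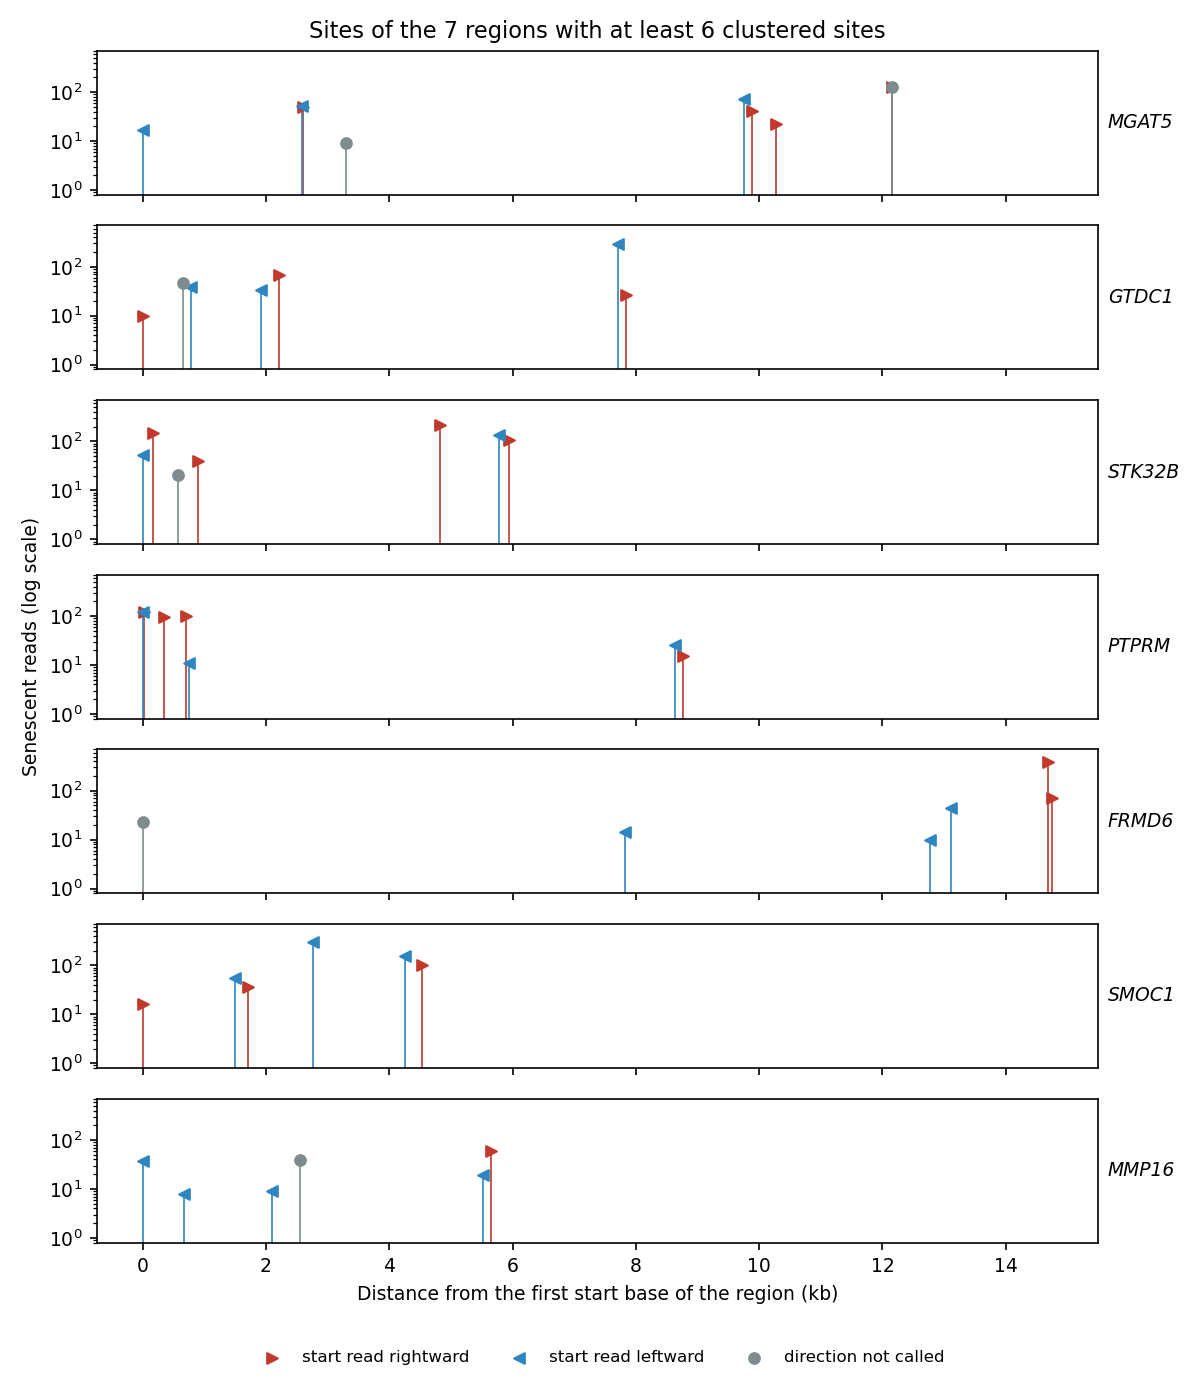
Sites of the 7 regions with at least 6 clustered sites. Each panel is a region, the horizontal axis is the distance from its first start base in kb and the vertical axis the senescent reads of a site on a log scale; arrows give the inferred direction and circles sites with no call. Divergent neighbours within 300 bases are found in 6 of the 7 panels, and the FRMD6 region, without such a pair, is the widest, 14757 bases.

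The site lists gave + for the strand of all 1249 sites, so direction was inferred from the sequence at the centre of the sites. No stranded read was available to check these calls, and some can be wrong because the step is also common elsewhere. A pyrimidine-purine step with the purine at the midpoint was read as a rightward start, and one with the pyrimidine there as a leftward start, since the step reads the same on the other strand. A step in one of these registers was found at 387 of the 446 members (86.8%, Wilson 95% interval 83.3 to 89.6), at 85.7% of isolated senescent and 88.5% of clustered proliferating sites, and at 86.1% of all sites. At 20 bases to either side of the midpoint it was found at 43.7% of members, so the centre of a site is the start base to within a single base for most of them. The step was CA at 224 of the 387 (57.9%). Rightward starts numbered 205, leftward starts 182, and 59 were not called. This reading, and the distance limit and read ranges used below, were chosen after the sequences and folds had been seen, and are given as descriptions with no test.

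**Figure D2:**
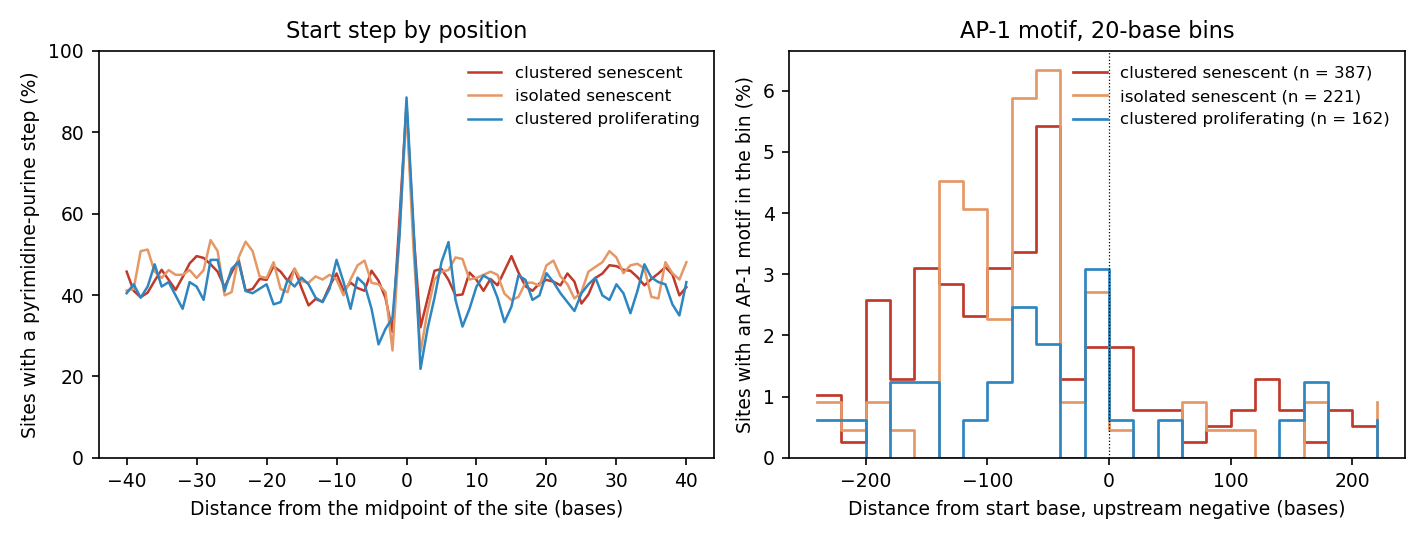
Left, the share of sites (%) with a pyrimidine-purine step against the distance from the midpoint in bases; right, the share of called sites with an AP-1 motif in each 20-base bin, upstream negative, for clustered senescent, isolated senescent and clustered proliferating sites. The step rises to 86.8% at the midpoint of clustered senescent sites, and their AP-1 motifs lie mostly upstream, most often 40 to 60 bases from the start.

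Members did not favour the strand of their host gene. Of the called starts, 189 ran with the host gene and 198 against it (48.8% with it, 43.9 to 53.8). The isolated sites ran with the gene in 53.4% (46.8 to 59.9). A start inside an intron was therefore about as often antisense as sense.

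Neighbouring members within 300 bases mostly pointed away from each other. There were 271 pairs of adjacent members, a median of 355 bases apart, and 127 of the pairs lay within 300 bases. Direction was called at both starts of 106 of these, and 92 were divergent (86.8%, 79.0 to 92.0), 8 faced each other and 6 ran the same way. Beyond 300 bases, 15 of 100 called pairs were divergent (15%, 9.31 to 23.3), 39 faced each other and 46 ran the same way. The change came between 201 to 300 bases, with 20 divergent pairs of 23 called, and 301 to 500 bases, with 4 of 23. When the direction was read at the position 20 bases to the left instead, only 23 pairs within 300 bases were called and 3 of them were divergent (13.0%).

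**Figure D3:**
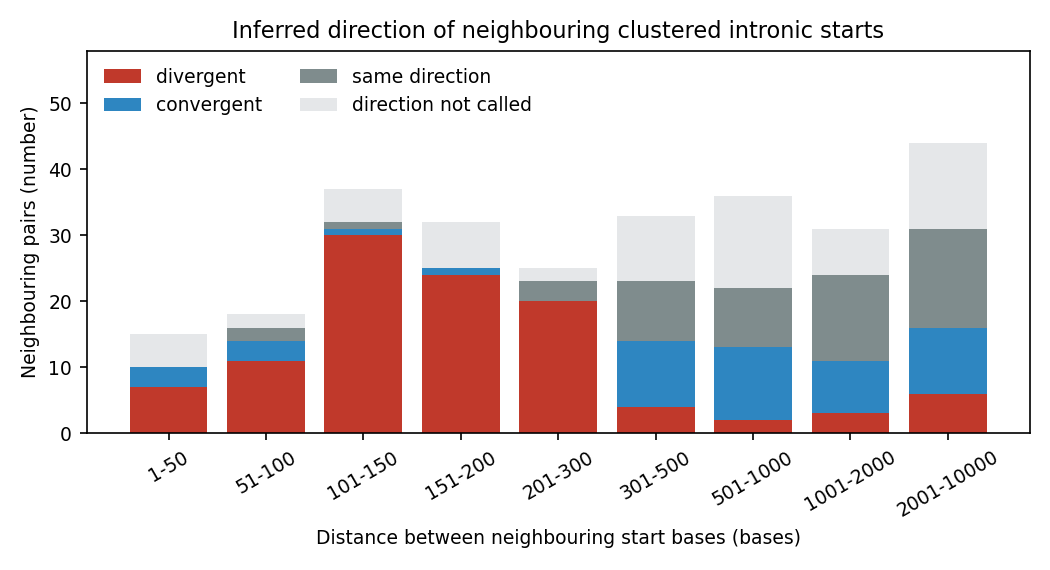
Number of pairs of neighbouring clustered intronic starts by the distance between their start bases (bases), coloured by inferred direction. Divergent pairs make up most of the called pairs up to 300 bases, 92 of 106, and 15 of 100 beyond.

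The 92 divergent pairs lay in 74 genes and in 82 of the 174 regions. Their starts were a median of 147 bases apart (interquartile range 109.5 to 190). For 48 of the pairs the 150-base windows overlapped, so that some reads may have been counted at both sites, and the sources used here do not say whether the authors' counts kept the strand. Of the 15 pairs within 50 bases, 8 had the same reads at both sites in both states. Among them were the starts 1 base apart in ANTXR1, each with 59 senescent and 2 proliferating reads. These lie on the same pyrimidine-purine step, read from either base. Their divergent call is therefore fixed by the reading, and the pair is counted among the 92. Within a divergent pair the weaker start had a median of 34.1% of the pair's senescent reads, and in 9 pairs the starts differed at least 10-fold. This share takes in the 48 pairs with overlapping windows, and the part of shared reads in it was not tested. ADAM12 was one of these unequal pairs, while the PALM2AKAP2 pair shown above had 8 and 75 reads. Most of the divergent pairs were thus unequal. Among the 44 without overlap the left start had more reads in 27 and the right start in 17. That both starts had senescent reads follows from the choice of pairs, since each start is a listed site. Neither start had a proliferating read in 23 pairs, one start had some in 47, and both had some in 22.

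An AP-1 motif lay between the starts of 18 of the 92 divergent pairs (19.6%, 12.7 to 28.8). In ADAM12 it stood 94 bases from the leftward and 57 bases from the rightward start, and in PTPRM 81 and 72 bases. ARHGEF3, which encodes a RhoA exchange factor, had it at 93 and 59 bases, with 111 and 25 senescent reads. In DOCK9, a CDC42 exchange factor, it was 10 bases from the rightward start, with 26 and 39 reads. STK32B, a serine/threonine kinase gene, and RAD51B, whose product acts in homologous recombination, had 2 motifs each between their starts. A central place, as in ADAM12 and PTPRM, was therefore not shared by all of these pairs.

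By direction, the motifs lay upstream of the starts. Among called members, 78 of 387 (20.2%) had an AP-1 motif within 150 bases upstream of the start base and 23 (5.94%) within 150 bases downstream. The median upstream distance was 64.5 bases (interquartile range 46 to 101). At isolated senescent sites the counts were 57 of 221 (25.8%) upstream and 5 (2.26%) downstream. At clustered proliferating sites they were 13 of 162 (8.02%) and 2. A motif between the starts of a divergent pair lies upstream of both and is counted for each. A TATA box (TATAAA or TATATA) 25 to 35 bases upstream was found at 12 called members (3.10%), and at the mirrored place downstream at 5.

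In the central 200 bases of a site, without regard to direction, 84 of the 446 members held an AP-1 motif (18.8%, 15.5 to 22.7). In 200-base windows cut from the same introns the share was 3.54%, and among the other 803 sites of the lists it was 13.9%. Isolated intronic senescent sites had 18.6%, and the difference from the members was within counting error (odds ratio 1.02, 95% interval 0.674 to 1.54, adjusted Fisher's exact p = 1). Clustered intronic sites of the proliferating list, chosen by the same rule, held a motif in 16 of 183 cases (8.74%, 5.45 to 13.7). The odds were 2.42 times higher in the senescent members (1.35 to 4.57, adjusted exact p = 0.0037). With the lists cut to 1 site per region, the leftmost, the odds ratio was 2.21 and the adjusted Fisher's exact p = 0.13. Motifs were present in 57 of the 174 regions. The members of a region share sequence and source, and a p-value over sites is therefore too small.

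Base composition differed little within the senescent list. The median GC content of the central 200 bases was 45% in the members and 44.75% in isolated sites (odds ratio for lying above the joint median 1.04, 0.755 to 1.43, adjusted Fisher's exact p = 0.90). TATA boxes were present in 17.9% and 13.2% (odds ratio 1.44, 0.917 to 2.30, adjusted exact p = 0.18), against 24.3% of the intron windows and 12.6% of all other sites. More CpG steps than the joint median of 2 were found at 35.9% of members and 30.6% of isolated sites (odds ratio 1.27, 0.902 to 1.79, adjusted exact p = 0.22). Clustered proliferating sites passed that median in 51.9% (odds ratio 0.519, 0.360 to 0.746, adjusted exact p = 8.8e-04), which gave 0.595 and an adjusted p of 0.13 with 1 site per region. GC content in that comparison had medians of 45% and 47% (odds ratio 0.729, 0.508 to 1.05, adjusted exact p = 0.15), and TATA boxes were present in 17.9% and 15.3% (odds ratio 1.21, 0.743 to 2.01, adjusted exact p = 0.59).

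Clustered sites had more reads than isolated ones. A member had a median of 41 senescent reads (interquartile range 20 to 80, range 1 to 908) and an isolated intronic site a median of 18 (12 to 41.75, range 2 to 468). More members than isolated sites lay above the joint median of 32 reads, 59.4% against 31.8% (odds ratio 3.14, interval 2.25 to 4.40, adjusted Fisher's exact p = 1.5e-11). The ranges overlapped from 2 to 468 reads, and only members lay above that. Under 10 reads were found at 27 sites of each kind. Overlapping windows can hold the same reads, which only members can share with a neighbour by the rule, and the part of this in the difference was not tested. With 1 site per region, the leftmost, the odds ratio was 2.85 (adjusted Fisher's exact p = 2.0e-06). That site can still share reads with a neighbour that was left out. In the 92 divergent pairs the left start had more reads in 65 and the right start in 24, so keeping the leftmost site can favour members with more reads. The size of either effect was not tested.

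**Figure D4:**
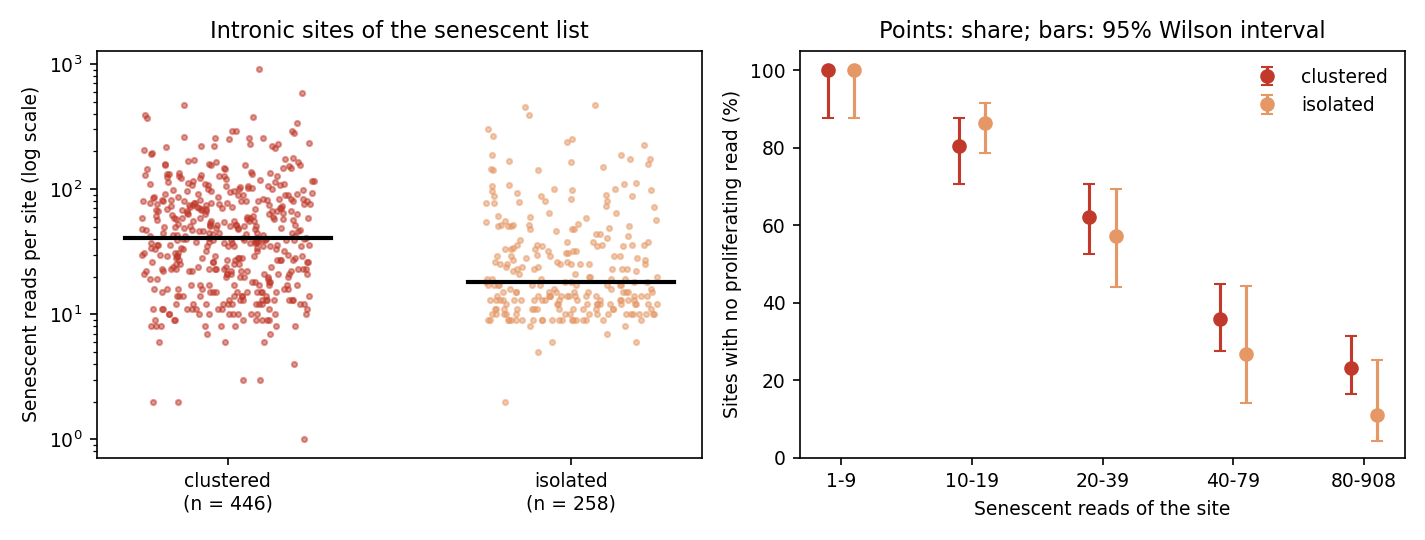
Left, senescent reads per site on a log scale for clustered and isolated intronic sites, with the median as a bar; right, the share of sites (%) with no proliferating read by range of senescent reads, with 95% Wilson intervals. Clustered sites have the higher median, 41 against 18, and within each range of reads the intervals of the groups overlap.

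Proliferating cells had no read at 227 members (50.9%, 46.3 to 55.5), and the remaining 219 had a median of 2 reads and at most 11. Over both lists, 61% of sites had no read in the other state. Isolated intronic sites had none in 64.0% (57.9 to 69.6), more often than members (odds ratio 0.585, interval 0.421 to 0.810, adjusted Fisher's exact p = 0.0026). Depth moved with this difference. The lowest fold in the senescent list was 10.2, so a site with any proliferating read needed at least 13 senescent reads to be listed, and 59 members and 71 isolated sites had fewer. Members with no proliferating read had a median of 24 senescent reads, and those with one or more had 68.

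Among sites of like depth the intervals of clustered and isolated sites overlapped. From 20 to 39 senescent reads, 62.0% of members (52.6 to 70.6) and 57.1% of isolated sites (44.1 to 69.2) had no proliferating read. From 40 to 79 reads the shares were 35.7% (27.4 to 44.9) and 26.7% (14.2 to 44.4), and from 80 reads 23.1% (16.4 to 31.5) and 11.1% (4.41 to 25.3). With sites of 20 to 60 reads alone the odds ratio was 1.15 (adjusted Fisher's exact p = 0.75). The deepest members, where a missing read says most, thus had proliferating reads in most cases. By region, 38 of the 174 had no proliferating read at any member, 40 had reads at every member, and 96 were mixed.

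Clustered sites of the proliferating list more often lacked reads of the other state. No senescent read was found at 77.0% of them (70.4 to 82.5), against 50.9% of the members without a proliferating read (odds ratio 0.309, interval 0.204 to 0.463, adjusted Fisher's exact p = 5.3e-09). Their median depth was lower, 25 reads. The lowest fold was 10.2 in the senescent list and 10.0 in the proliferating list. These folds are made of the reads compared here, so the test is not independent of which sites were listed. The fixed step was 39.4 per proliferating read and 32.8 per senescent read, so a like limit on the fold asks different read numbers of the lists. The part of these limits in the difference was not tested. With 20 to 60 reads in the own state the odds ratio was 0.317 and the adjusted exact p = 0.0045.

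Host genes are described below by short lists of genes that are not complete for their class and were drawn up with the site counts known, so that a list's share of hosts is no evidence about the class. Over all protein-coding genes 0.727% were hosts, and of those longer than 100 kb 3.12%. Hosts outside the lists are named in the same places, chosen after their values were seen.

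GTDC1, which encodes a glycosyltransferase-like protein, held the most members. Its 12 sites lay in 3 regions of introns 16 to 18 of 24, between 144854116 and 144895951 on chromosome 2, and had from 10 to 291 senescent reads, with a median of 51.5. No proliferating read was found at 7 of them. Of its pairs, 4 were divergent, and the widest difference within one was 291 against 26 reads, at start bases 144895734 and 144895876. The sites at 144869110 and 144869165 had 132 and 103 senescent reads with 8 and 6 proliferating reads, the most in the gene. A second glycosyltransferase gene, MGAT5, whose product branches N-glycans, held 9 members in 1 region of introns 12 and 13, with 9 to 127 reads and a median of 49. One of its divergent pairs, at 135166071 and 135166198, had 72 and 41 senescent reads against 1 and 2 proliferating reads. CHSY1, a chondroitin synthase gene, held members with 147 and 42 senescent reads, with 4 and 0 proliferating reads. Of the 40 glycosyltransferase genes listed, 3 held members, 2 of them among the 27 longer than 100 kb, and the median gene length was 156 kb. ST3GAL6, a sialyltransferase gene that was not on that list, held 5 members. All 5 had proliferating reads, 1 to 5 of them against 31 to 71 senescent reads. This was not particular to ST3GAL6, since 40 of the 174 regions had proliferating reads at every member.

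PTPRM held 11 members in 2 regions of introns 17 and 18 of 40, and 7 of them had an AP-1 motif, the most of any gene. These are members and not motifs, since close members can share a motif, as in the pair shown above. The first region began at start bases 8116556 and 8116571, each with 122 senescent and 2 proliferating reads. The second region held the pair shown above and, 890 bases further, a start with 132 senescent and 2 proliferating reads. The 31 bases around one member, at 8125194, occur 4979 times in the genome, so its 26 reads are uncertain. Such sequence was unique at 443 of the 446 members, and the other exceptions lay in DDAH1 and DLC1, with 2 copies each, named after their values were seen.

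The other adhesion and surface genes named here had fewer members with an AP-1 motif. ANTXR1, a collagen-binding receptor, held 8 members in 4 regions and 3 divergent pairs, of which the strongest had 131 and 86 senescent reads against 2 and 0 proliferating reads. The 3 pairs include the starts 1 base apart, which share a single step. CDCP1, a transmembrane glycoprotein phosphorylated by SRC kinases, held 8 members in 2 regions with 9 to 116 reads, no AP-1 motif and no divergent pair (0 of each), and the direction of 4 was not called. In ITGA2, the collagen receptor subunit, members had 172 and 40 senescent reads with 2 and 1 proliferating reads. CDH13, an anchored cadherin, and TENM3, a teneurin, held 4 members each, and PCDH9, a protocadherin, held 2 with no proliferating read at 135 and 13 senescent reads. This list of adhesion molecules and guidance receptors had a member in 7 of its 58 genes, or 6 of the 47 longer than 100 kb, and a median gene length of 326 kb.

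Fibroblasts make and crosslink the extracellular matrix, and TGF-beta signalling is a main regulator of its genes. Of 49 matrix and crosslinking genes, 4 held members, 3 of them among the 20 longer than 100 kb (median gene length 89.3 kb). Of 35 TGF-beta genes 3 did, 2 of them among the 11 longer than 100 kb (median 78.0 kb). SMOC1, a matricellular protein of basement membranes, had 6 members in intron 10, with senescent reads of 16, 55, 36, 294, 156 and 101 from left to right. Proliferating reads there were 0, 2, 0, 3, 0 and 1, so the strongest start was also detected in proliferating cells. COL8A1, a short-chain collagen, held members with 71 and 164 senescent reads and 1 and 5 proliferating reads, both with an AP-1 motif. EFEMP1, a fibulin, held a divergent pair with 60 and 27 senescent reads and 1 and 0 proliferating reads. LOXL2, which crosslinks collagen, had 84 and 36 senescent reads at its members, with 2 and 0 proliferating reads.

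Of the TGF-beta genes, TGFB2, a ligand, held members with 41 and 17 senescent reads and no proliferating read (0 at both). TGFBR3, the co-receptor betaglycan, held 3 with 8, 23 and 39 senescent reads and 0, 1 and 0 proliferating reads. LTBP1, which binds latent TGF-beta, held 1 member with 34 senescent reads and 0 proliferating reads. The highest count at these TGF-beta sites was 41, which was also the median of all members. The highest counts in the matrix genes were 294 in SMOC1, 164 in COL8A1, 84 in LOXL2 and 60 in EFEMP1. Among 50 secreted factors of senescent cells, IGFBP7, a secreted protein that binds insulin-like growth factors, was the listed gene with members: 3 in intron 2, with 52, 46 and 8 senescent reads and 0, 1 and 0 proliferating reads.

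Kinase and cytoskeletal hosts varied in depth and in proliferating reads. STK32B had 9 members in intron 9, in 2 regions, with 21 to 213 senescent reads and no proliferating read at 7. Its highest start, at 5372332 on chromosome 4, had 213 senescent reads and 0 proliferating reads. MAPKAP1, a subunit of mTOR complex 2, had 82 and 222 senescent reads and no proliferating read (0 at both). PRKCE, protein kinase C epsilon, had 157, 96 and 35 senescent reads with 1, 0 and 2 proliferating reads. PALM2AKAP2, which anchors protein kinase A, held 7 members in 3 regions, with 8 to 98 senescent reads and up to 7 proliferating reads. Of the 52 kinase and scaffold genes listed, these 4 held members, all among the 45 longer than 100 kb (median gene length 259.7 kb). LATS2, RPS6KA2, STK24, JAK1 and PXK, kinase or kinase-like genes not on the list, held 4, 3, 3, 2 and 2.

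Of 58 GTPase and actin genes listed, 4 held members, all among the 55 longer than 100 kb (median length 274 kb), namely DOCK9, ARHGEF3, ARHGAP24 and FMNL2. ARHGAP35, DLC1, SRGAP1 and ARAP1, also regulators of GTPases, were not on the list and held 2 each. ARHGAP24, a RAC-directed GTPase activator, had members with 257 and 40 senescent reads and 10 and 3 proliferating reads. FMNL2, a formin, had a divergent pair with 159 and 82 senescent reads and 2 proliferating reads at each start. No proliferating read was found at any of the 3 members in DOCK9, while every member in ARHGAP24 and FMNL2 had some.

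Genes of ion channels and synapses are long and are best known from neurons. Of 46 such genes listed, 5 held members, all among the 44 longer than 100 kb (median length 498 kb). SHANK2, GABBR2, KCNAB1 and KCNJ15 were not on the list and held 4, 3, 3 and 3. NALF1, an auxiliary subunit of the NALCN channel, held 9 in 4 regions with 8 to 43 senescent reads, a median of 13 and no proliferating read at 7. KCNMA1, a calcium-activated potassium channel, had 230 and 56 senescent reads with 10 and 4 proliferating reads. RIMS2, a synaptic scaffold, had 169 and 89 senescent reads and no proliferating read (0 at both). TRPM3, a cation channel, had 120 and 13 senescent reads with 9 and 1 proliferating reads. ITPR1, the calcium release channel of the endoplasmic reticulum, held 4 members with 22 to 69 reads. The host gene says where a start lies, and its own transcription was not measured by these lists.

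On the remaining lists, RUNX1 was the 1 gene with members of 47 AP-1, RUNX, TEAD and related factor genes. Among 48 listed genes of the cell cycle and DNA repair 2 held members, both among the 10 longer than 100 kb. RAD51B held 4 and HMGB1, a chromatin protein, held 2, with 68 and 31 senescent reads and 2 and 0 proliferating reads. Of 50 chromatin and Mediator genes, MED12L and MED15 held 2 each. Repair and cohesion genes outside the lists also held members, 3 each in POLK, NSMCE1 and WAPL, 2 each in SLX4IP and SPIDR, and 1 in STAG1. No member lay in the 40 listed interferon and innate genes, the 24 housekeeping genes or the 28 matched markers of other cell types (0 in each list), of which 1, 1 and 4 were longer than 100 kb. The first of these counts depends on the genes chosen, because 3 genes of interferon and cytokine signalling outside the list were hosts. JAK1, a receptor-associated kinase, had 165 and 148 senescent reads with 1 and 3 proliferating reads. IFNGR2, an interferon gamma receptor chain, had 82 and 103 with 0 and 2, and STAT4, a transcription factor activated by cytokines, had 7, 48 and 36 with 0, 3 and 2.

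Further genes with at least 5 members lay outside these lists. FRMD6, a FERM-domain protein linked to Hippo signalling, had 6 members over the widest region, with 10 to 391 senescent reads and proliferating reads at only the strongest. RETREG1, a receptor for turnover of the endoplasmic reticulum, had 5 members with 58, 144, 175, 15 and 259 senescent reads and at most 2 proliferating reads. AOPEP, an aminopeptidase, had 5 with 14 to 375 reads, and the pair shown above had 7 and 5 proliferating reads. MMP16, a membrane-type metalloproteinase, held 6 members with 8 to 59 reads, and GLI2, a transcription factor of Hedgehog signalling, held 5 with 3 to 58. CPQ, a carboxypeptidase gene, had 5 with 12 to 108, CTIF, a translation factor gene, 5 with 9 to 62, and ENSG00000285837, 5 with 19 to 69. Depth thus differed widely between regions with like numbers of sites.

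Some of the highest read counts came from regions with few members. ARSG, a lysosomal sulfatase gene, had starts with 587 and 471 senescent reads against 7 and 3 proliferating reads. FAM170B-AS1, a non-coding gene, held 3 with 115, 367 and 254 senescent reads and 3, 11 and 8 proliferating reads, and the 11 were the most proliferating reads at any member. SPIDR, which encodes a scaffold of DNA repair, had 290 and 76 senescent reads and 2 and 0 proliferating reads. High senescent counts thus came with some proliferating reads at most of these starts.

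A few host genes also held sites of the proliferating list, of any class. Such sites were found in 5 of the 157 genes, and 2 members lay within 10 kb of one. Among coding hosts longer than 100 kb 4 of 114 held one (3.51%), near the 3.53% of all coding genes of that length. NXN, a redox protein gene, had 2 members and 4 proliferating sites, and RAD51B had 4 of each. CAMTA1, MARCHF1 and MAP3K7CL had 3, 3 and 2 members with 1 proliferating site each. Apart from RAD51B, these genes were named because they were the shared ones, after their values were seen.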

How the data were processed

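PRO-cap start sites of IMR90 cells were read from 4 deposited lists, of which 2 were distinct. Their deposited unit is a ratio, the fold between the states. The calling of sites and the libraries behind them: not given in the sources used here. Tools named in the submitters' processing notes are bedtools 2.27.1-65, BWA 0.7.10, cutadapt 2.10, HOMER and SAMtools 1.1, without roles. Library depth is unknown. The fixed steps in the folds were 32.8 per senescent read and 39.4 per proliferating read.

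Reads were decoded from the folds, and sites were placed with GENCODE 44 and GRCh37 sequence in Python 3.11.15 with pysam 0.24.0. The 11 comparisons used two-sided Fisher's exact tests in SciPy 1.17.1, adjusted by Benjamini-Hochberg with a threshold of 0.05. Above-median splits stood for reads, GC and CpG. Both intervals and p-values are over sites: they cover counting error, not the spread between cultures. Neighbour distance, window width, read minimum, host genes and 1 site per region were varied. The 1 site kept per region was the leftmost by coordinate.

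The members and gene lists were chosen with earlier results of these data known. Genes were named if they held at least 5 members, one of the 10 regions with the most members or one of the 10 members with the most reads, or belonged to a list and held a member. Repeat-masked sequence was not used here.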

Additional observations from a re-analysis of the deposited data

How the results depend on the processing

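Of 93 alternative values for the 11 tests, 75 kept direction and side of the threshold, and 5 of 6 alternative counts of sites stayed within 1.5 times the count of members. With 1 site per region, the differences between clustered senescent and proliferating sites lost their calls for AP-1 (odds ratio 2.21, adjusted Fisher's exact p = 0.13) and CpG (0.595, p = 0.13). In the central 100 bases that AP-1 ratio was 1.70 and also lost its call, the CpG ratio of clustered against isolated sites was 1.52 and gained one (adjusted exact p = 0.044), and the TATA ratio between the states turned to 0.781. In the central 300 bases the GC ratio between the states was 0.661 and gained a call (adjusted exact p = 0.041). With 20 to 60 reads, an alternative chosen after seeing the data, the AP-1 ratio between the states was 2.20 and lost its call. Against isolated sites, the ratio for no read in the other state turned to 1.15, and that for reads was 1.66 (adjusted exact p = 0.25), which this setting narrows by construction since it limits the reads themselves. In the other alternatives the reads ratio kept its call and ran from 2.81 to 3.42.

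The AP-1 ratio of clustered against isolated sites, not called in any alternative, turned below 1 with neighbours within 5 kb (0.932) or 20 kb (0.967), at least 10 reads (0.935), 20 to 60 reads (0.996), without genes of at least 8 members (0.892) and in 300 bases (0.944). The GC ratio turned in coding genes (0.972), with at least 10 reads (0.930) and with 20 to 60 reads (0.811). Joined within 500 bases, the sites numbered 286. The cause was not tested for the other changes.

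No paired analysis was possible because each site has a single fold and no library values, and so no replicate was left out. The comparison without repeat-masked midpoints was not run. No site with a proliferating read had under 13 senescent reads, and the 59 members below that depth all had 0 proliferating reads.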

Other observations

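The proliferating list held groups of intronic starts with a similar layout. By the same rule 183 of its 288 intronic sites were clustered, and they formed 106 pairs of adjacent members, of which 57 lay within 300 bases. Direction was called in 45 of these, and 31 were divergent (68.9%, Wilson 95% interval 54.3 to 80.5), a median of 158 bases apart, while 13 faced each other and 1 ran the same way. Beyond 300 bases 5 of 38 called pairs were divergent (13.2%, 5.75 to 27.3). An AP-1 motif lay between the starts of 3 of the 31 divergent pairs (9.68%, 3.35 to 24.9). The difference in these shares from the senescent members was not tested.

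Reads were not even between the sides of a divergent pair. In the senescent members the leftward start, inferred to be on the - strand, had more reads in 65 of 92 pairs, the rightward start in 24, and 3 were equal. Where the windows of a pair overlapped the counts were 38 and 7, and where they did not they were 27 and 17. In the proliferating list they were 20 and 9 of 31 pairs in all. Left and right follow the genome's numbering, for which the labels name no experimental counterpart, and the source of this imbalance was not tested.

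Reads of neighbouring members moved together weakly. Spearman's rho was 0.31 over 57 pairs 150 to 300 bases apart and 0.11 over 75 pairs more than 1000 bases apart, where the points share libraries and, in part, regions.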
